A study of Mus musculus with 6 samples.

Results

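The genes described here supply new histones to replicating DNA: Slbp, Npat, Casp8ap2, Nasp, Asf1a, Asf1b, Chaf1a, Chaf1b and Hat1, 9 of the 21896 protein-coding genes in the RefSeq gene table of mouse build GRCm38. They were chosen by function and on earlier results of these same peak lists, so whether they carry a peak, and how strong it is, is given as a description without a test. A peak was assigned to a gene when it lay inside the gene's span or within 1000 bp of it. By this rule E2F1 peaks were listed at 9 of the 9 genes in each of the E2F1 libraries, and Chaf1a was the gene of the 9 that also held peaks in the empty-vector lists.

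The study used the established mouse fibroblast line NIH/3T3, derived from embryos. Per the labels, doxycycline-inducible E2F1 or an inducible empty-vector (EV) control had been stably integrated. The serum for growth was 10%. Both kinds of cell were starved for 48 hours in 0.25% serum. They were then held in doxycycline for 12 hours, at 500 ng/ml in the general treatment protocol (the names of the lists carry another figure). Chromatin immunoprecipitation and sequencing (ChIP-seq) followed, with an antibody that the sources used here do not name. Each group had 2 libraries, each with its own list, and the labels do not say whether the integrated cells were a pool or a clone. The EV cells shared the starvation and the drug. Their own E2F1 was not measured here, so a peak missing from an EV list is a site below the authors' threshold and not a site shown to be free of E2F1.

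E2F1 is a transcription factor that, once released from retinoblastoma-family proteins, drives genes needed for entry into S phase. Each round of DNA replication needs as much new histone protein as the parent chromatin holds. Replication-dependent histone mRNAs end in a stem-loop instead of a poly(A) tail. SLBP, the stem-loop binding protein, processes and carries these mRNAs. NPAT and CASP8AP2 (also called FLASH) act at the histone locus body, the nuclear site where histone genes are transcribed and their mRNAs cut. After translation, NASP and the ASF1 proteins escort histones H3 and H4, HAT1 acetylates new H4, and CHAF1A and CHAF1B, the large and middle subunits of CAF-1, place H3 and H4 on replicated DNA.

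The lists held 7836 and 8027 peaks in E2F1 replicates 1 and 2 and 70 and 358 in EV replicates 1 and 2. Fold enrichment is the authors' ratio of reads piled up at the summit to the local background, with a median of 9.19 and 11.3 over the E2F1 lists. No library totals were used. The lowest background behind any peak was 1.85 and 1.86 reads in the E2F1 lists and 2.20 and 1.18 reads in the EV lists. It rises with depth but also moves with how the control was scaled, so the order of the libraries by depth is not known. With 2 libraries against 2, an exact two-sided permutation test cannot go below p = 0.333, and none was run.

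Because the peaks sat at the start sites, the DNA in front of 5 of these genes is shown: the pair with the highest mean fold (Slbp and Hat1), the pair with a full E2F motif (Casp8ap2 and Chaf1a), and Chaf1b, the partner of Chaf1a. Each run is the 200 bases that end just before the RefSeq start site, 5′ to 3′ on the strand of the gene, on GRCm38.p6. Capitals mark E2F motif letters as searched: TTTGGCGC, TTTCGCGC, TTTGCCGC, TTTCCCGC and GGCGGGAA on both strands, and the same words without the first T or, for the last, without the final A. These words overlap each other, so one stretch can match several. The runs lie at chr5:33652575-33652774 (minus strand), chr4:32615270-32615469, chr17:56040216-56040415, chr16:93883701-93883900 and chr2:71389060-71389259 (plus strand).
Slbp: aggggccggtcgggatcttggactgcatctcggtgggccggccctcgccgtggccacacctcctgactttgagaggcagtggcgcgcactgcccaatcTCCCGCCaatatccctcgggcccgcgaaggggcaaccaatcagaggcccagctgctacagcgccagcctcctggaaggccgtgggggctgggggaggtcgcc
Casp8ap2: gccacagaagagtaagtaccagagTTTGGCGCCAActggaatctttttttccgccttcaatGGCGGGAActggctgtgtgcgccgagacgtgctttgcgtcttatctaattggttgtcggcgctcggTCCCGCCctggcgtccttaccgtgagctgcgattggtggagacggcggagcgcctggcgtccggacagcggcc
Chaf1a: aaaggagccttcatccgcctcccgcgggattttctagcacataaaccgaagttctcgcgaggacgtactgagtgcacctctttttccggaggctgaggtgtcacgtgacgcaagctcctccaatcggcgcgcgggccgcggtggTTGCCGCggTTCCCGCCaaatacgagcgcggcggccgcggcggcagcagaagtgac
Chaf1b: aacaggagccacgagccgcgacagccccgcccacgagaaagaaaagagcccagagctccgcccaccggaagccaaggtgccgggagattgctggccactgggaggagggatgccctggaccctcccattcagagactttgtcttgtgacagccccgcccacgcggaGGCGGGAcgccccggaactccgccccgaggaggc
Hat1: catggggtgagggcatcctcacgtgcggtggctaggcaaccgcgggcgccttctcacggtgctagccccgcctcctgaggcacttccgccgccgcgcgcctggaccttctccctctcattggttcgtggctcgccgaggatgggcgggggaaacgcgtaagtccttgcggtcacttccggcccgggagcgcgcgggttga
The Casp8ap2 run holds matches in 3 places, while the Hat1 run has no capitals although its peak was among the strongest of the group.

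Promoter windows of 300 bases, from 250 before to 50 after the start site, were matched for 9 of the 9 genes. A full motif of 8 letters was found in 2 of them, against 4.95% of the 21262 windows of protein-coding genes and 10.1% of the 6256 such windows that a peak of both E2F1 lists overlapped. In Casp8ap2 the word TTTGGCGC began 176 bases upstream of the start site and GGCGGGAA began 139 bases upstream. The latter was centred 12 bp from the summit in E2F1 replicate 2 and 334 bp from it in replicate 1. In Chaf1a, GGCGGGAA lay on the opposite strand, 47 bases upstream, and was centred 106 bp and 26 bp from the summits of replicates 1 and 2.

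The words shortened to 7 letters, a search added after the data were seen, were found in 5 of 9 windows (Slbp, Npat, Casp8ap2, Chaf1a and Chaf1b), against 22.3% of protein-coding windows and 42.4% of those under a peak of both E2F1 lists. The Slbp window had no full motif but held GGCGGGA on the opposite strand in 3 places, which began 227 and 102 bases before and 35 bases after the start site. The one at 35 bases was nearest the summits, at 65 bp and 93 bp. In Npat GGCGGGA began 24 bases upstream. The windows of Nasp, Asf1a, Asf1b and Hat1 held neither form, which says that these letters are not in those windows and nothing more. The CCAAT box, a promoter element bound by NF-Y, was in 8 of 9 windows, Chaf1b being the one without it, against 38.2% of protein-coding windows and 36.7% of those under a peak of both E2F1 lists. Asf1b had it in 4 places and Slbp in 3. The word TTTGAA, the letters of the CHR element found in many genes of later cell cycle phases, was in the windows of Nasp and Asf1b, against 16.0% of protein-coding windows and 9.48% of those under a peak of both E2F1 lists. The windows held 13 to 35 CpG sites with a median of 31, next to a median of 13 over protein-coding windows and 27 over those under a peak of both lists. Nasp was the lowest, with 13 CpG sites and a GC content of 48.3%. These shares are descriptions of 9 windows whose genes were not drawn at random.

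**Figure D1:**
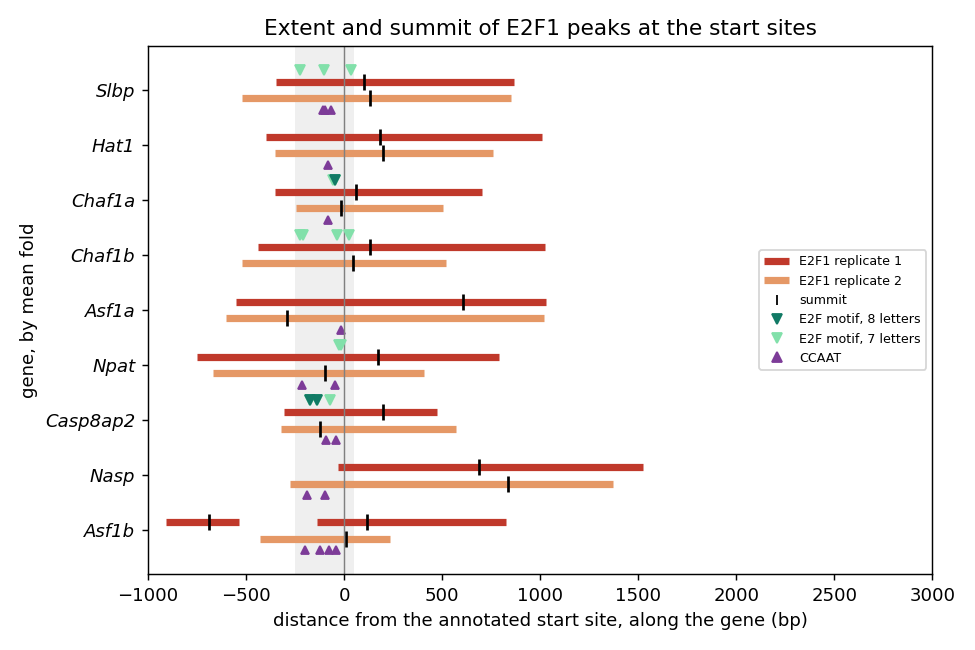
Extent of each E2F1 peak at the start sites (horizontal bars, E2F1 replicates 1 and 2) in bp along the gene from the annotated start site, with genes in order of mean fold. Black ticks are summits, triangles are E2F words of 8 or 7 letters and CCAAT boxes, searched inside the grey promoter window of 300 bases; the bar at each start site spans it in both lists at 9 of 9 genes, and the Nasp summits lie 688 and 838 bp downstream.

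A peak in both E2F1 lists was found at 9 of 9 genes, where 34.4% of all protein-coding genes had one by the same rule. At each of the 9 genes the strongest peak at a gene boundary covered the annotated start site in both lists. In 7 of the 9 genes the summit lay within 200 bp of the start site in each list, with a median distance of 174 bp in replicate 1 and 124 bp in replicate 2. The exceptions in both lists were Nasp and Asf1a. Summits of replicate 1 lay downstream of the start site at 9 genes and those of replicate 2 at 5, the other 4 being upstream. The start-site peaks were 777 to 1578 bp wide in replicate 1 and 664 to 1651 bp in replicate 2. They were wider than the median peak of their list at 8 and 7 genes, the list medians being 938 and 814 bp.

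Among the genes for histone mRNA, Slbp carried the strongest peak. It spanned chr5:33651708-33652921 with a fold of 46.5 in E2F1 replicate 1, rank 44 of its list. In replicate 2 it spanned 33651723 to 33653095 with a fold of 90.5, rank 13. By the authors' score it was rank 6 in both lists. The summits were 103 and 131 bp downstream of the start site, 28 bp apart. A gap of 641 bp separates the start of Slbp from the span of Tmem129, which begins at 33653216. The peak ended before that span in both lists, and both summits lay inside Slbp. It still lies within 1000 bp of both genes, and these lists do not show which gene it acts on.

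Npat, the transcriptional activator of the histone gene clusters, had folds of 8.95 in E2F1 replicate 1 (rank 4060, chr9:53536296-53537836) and 24.8 in replicate 2 (rank 1229, 53536378 to 53537455). Casp8ap2, needed for the cut that makes the histone mRNA end, had folds of 8.39 (rank 4444, chr4:32615166-32615942) and 17.5 (rank 2323, 32615151 to 32616040). Both were just under the list median in replicate 1 and above it in replicate 2. The summits of the replicates lay 272 bp apart at Npat and 322 bp apart at Casp8ap2, on either side of the start site of the promoter table. The Npat span begins before that start site, at 53536889, so both Npat summits lie inside the gene. Npat begins 60 bp from Atm, the gene of a DNA damage kinase, and the peak covers the space between them. These lists cannot assign it to either gene.

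Of the H3-H4 escorts, Asf1a had the higher mean fold. Its peak spanned chr10:53596412-53597989 with a fold of 9.53 in E2F1 replicate 1 and 53596358 to 53597980 with a fold of 25.5 in replicate 2. The extents nearly coincided, but the summits were 901 bp apart, 608 bp downstream of the start site in replicate 1 and 293 bp upstream in replicate 2. Asf1a lies wholly inside the span of Mcm9, a helicase-related gene, so its peak is also an internal peak of Mcm9. Asf1b, the paralog linked to dividing cells, carried the lowest mean fold of the 9 genes. Replicate 1 listed 2 peaks there, chr8:83955556-83956522 over the start site with a fold of 7.001 and 83954786 to 83955159 upstream with a fold of 6.49. Replicate 2 listed 1 peak, 83955266 to 83955929, with a fold of 14.7 and a summit 8 bp from the start site. The upstream peak lies within the lncRNA gene Gm10644, whose span ends 360 bp from Asf1b. The replicate 2 peak overlaps the end of that span, and the start-site peak of replicate 1 lies within 1000 bp of it. These lists cannot assign the start-site peaks to either gene. Nasp, a histone chaperone that holds a reserve of H3 and H4, had folds of 15.4 (rank 1639, chr4:116626428-116627980) and 8.18 (rank 5478, 116626579 to 116628229). Its summits sat 688 and 838 bp downstream of the start site of the promoter table, farther inside the gene than at the other 8 genes. The gene's span reaches beyond that start site, to 116628676, so this start is not the outermost one annotated.

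Hat1, the acetyltransferase of new histone H4, had the second highest mean fold. Its fold was 53.6 in E2F1 replicate 1, rank 23, over chr2:71388863-71390270. In replicate 2 it was 27.3, rank 1016, over 71388909 to 71390022. The summits agreed within 13 bp, the closest of the 9 genes. Chaf1a and Chaf1b, for the large and middle CAF-1 subunits, differed less between replicates than the rest of the 9 genes. At its start site Chaf1a had folds of 23.8 (rank 554, chr17:56040062-56041117) and 29.96 (rank 833, 56040169 to 56040920). Chaf1b had 18.7 (rank 1066, chr16:93883461-93884928) and 18.3 (rank 2103, 93883381 to 93884421), nearly the same in both lists. No other annotated gene lay within 1000 bp of the peaks of Hat1, Chaf1b, Nasp, Casp8ap2 or the Chaf1a start site.

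**Figure D2:**
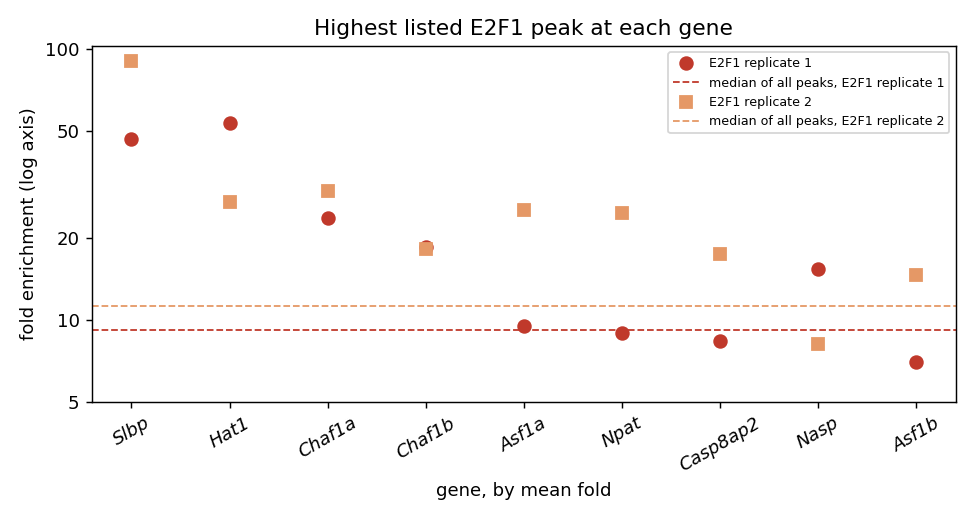
Fold enrichment (log axis) of the highest listed peak at each gene in E2F1 replicates 1 and 2, with genes in order of mean fold and dashed lines at the median of all peaks of each list, 9.19 and 11.3. Slbp is highest by mean and Asf1b lowest; Nasp is the gene that falls below the dashed line of replicate 2.

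In E2F1 replicate 1, 6 of 9 genes had a fold above the list median, those below being Npat, Casp8ap2 and Asf1b. In replicate 2 it was 8 of 9, all but Nasp. The median percentile of the genes' highest peaks was 79.1 and 84.6 in replicates 1 and 2. Over the 7535 protein-coding genes with a peak in both lists the median was 57.1 and 57.6. In replicate 1, 3 genes lay in the top 10% of the list (Hat1, Slbp and Chaf1a), and in replicate 2 Slbp did. Hat1 led in replicate 1 and Slbp in replicate 2. The order of the genes was not the same in both lists, and with 1 value per library no neighbours in it can be told apart.

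The fold at single genes differed between replicates by up to 2.78 times, seen at Npat. Replicate 2 was higher at 6 genes and lower at 3 (Nasp, Chaf1b and Hat1). Over the genes with a peak in both lists the ratio of replicate 2 to replicate 1 had a median of 1.26, with quartiles of 0.946 and 1.73. The ratio was 1.95 at Slbp, 2.78 at Npat, 2.68 at Asf1a, 2.10 at Asf1b and 2.08 at Casp8ap2, all beyond the upper quartile. It was 0.530 at Nasp and 0.510 at Hat1, below the lower quartile. These genes therefore spread to both sides of the usual shift between the lists.

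The reads at the summit, solved from the deposited fold and p-value, differed less than the folds. The pileup ratio of replicate 2 to replicate 1 ran from 0.712 to 1.79 with a median of 1.20. At Slbp the pileup was 422 reads over a background of 8.10 in replicate 1 and 615 reads over 5.81 in replicate 2. The other start-site pileups ran lower, down to 33 reads at Asf1b in replicate 1. At Asf1a the pileups were 60 and 72 reads, close to each other, while the background was 5.40 reads in replicate 1 and 1.86, the floor of its list, in replicate 2. Nasp had pileups of 68 and 61 reads over backgrounds of 3.47 and 6.58. At Hat1 the summit held 156 and 111 reads over 1.93 and 3.10. At each of the 9 genes, and not these 4 alone, the background was lower in the replicate with the higher fold, though barely so at Chaf1b. The background was solved from fold and pileup, so this is not a separate observation. The pileup itself rose most at Npat and Asf1b, by 1.79 and 1.55 times from replicate 1 to replicate 2. At Chaf1b pileup and background were steady, with 68 and 67 reads over 2.70 and 2.71.

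**Figure D3:**
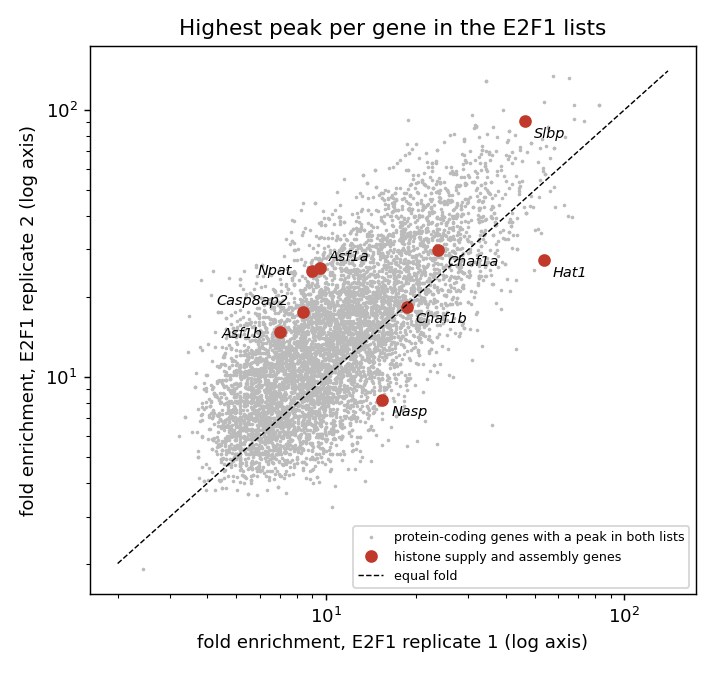
Fold enrichment of the highest peak per gene in E2F1 replicate 1 (x) and replicate 2 (y), both on log axes, for the 7535 protein-coding genes with a peak in both lists (grey) and the 9 histone supply and assembly genes (red). The dashed line marks equal fold; 6 of the 9 genes lie above it and Hat1, Nasp and Chaf1b below.

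In the EV lists 1 of the 9 genes, Chaf1a, had peaks, where 0.434% of all protein-coding genes had a peak in either EV list and 0.114% had one there and in both E2F1 lists. None of the EV peaks reached the Chaf1a start site. The start-site interval, from 354 bp before to 701 bp after the start, was listed in the E2F1 libraries alone. The other peaks of Chaf1a fell into 3 separate intervals inside the gene, whose exons and introns the table does not give. Since EV lists hold them too, they are described apart from the start-site peak.

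The first internal interval, chr17:56046798-56047652, began 6382 bp after the start site and was listed in 4 of 4 libraries. The E2F1 libraries had folds of 19.8 and 2.60 there, in replicates 1 and 2, and the EV libraries 11.3 and 120.8. The pileups were 156, 65, 107 and 2041 reads in the same order, over backgrounds of 6.94, 24.4, 8.52 and 15.9. EV replicate 2 stood far above the other 3 libraries, and the E2F1 and EV groups overlapped. The last interval, chr17:56062064-56065446, was also listed in 4 of 4 libraries, with highest folds of 12.6 and 4.90 in E2F1 replicates 1 and 2 and 9.22 and 168.5 in EV replicates 1 and 2. Again EV replicate 2 was the highest and E2F1 replicate 2 the lowest. In EV replicate 2 it was a single interval of 3383 bp, whereas EV replicate 1 and E2F1 replicate 1 each listed 2 peaks within it. The middle interval, chr17:56057690-56059057, was listed in EV replicate 2 alone, where 197 reads were piled up and the fold was 34.1.

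By fold the Chaf1a peaks were ranks 1, 2 and 3 of EV replicate 2, where the highest fold at any other place was 22.0. In EV replicate 1 they were ranks 1, 2 and 4, next to a highest fold elsewhere of 8.34. In E2F1 replicate 2 the internal peaks were among the lowest listed by fold, ranks 8017 and 7732, over backgrounds of 24.4 and 10.8 reads. Their pileups of 65 and 57 reads were above that list's median of 45, and by score they were ranks 7630 and 5516. In E2F1 replicate 1 the internal peaks ran from rank 931 to rank 5851 by fold. The background at the first internal interval was 3.76, 13.1, 3.88 and 13.5 times the lowest of E2F1 replicates 1 and 2 and EV replicates 1 and 2. It was above the median background of its list in E2F1 replicates 1 and 2 and in EV replicate 2. In EV replicate 1 it was 8.52 reads, below that list's median of 11.5. At the start-site peak the background was 1.46 and 1.06 times the lowest in the E2F1 lists. What these internal intervals are was not tested.

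**Figure D4:**
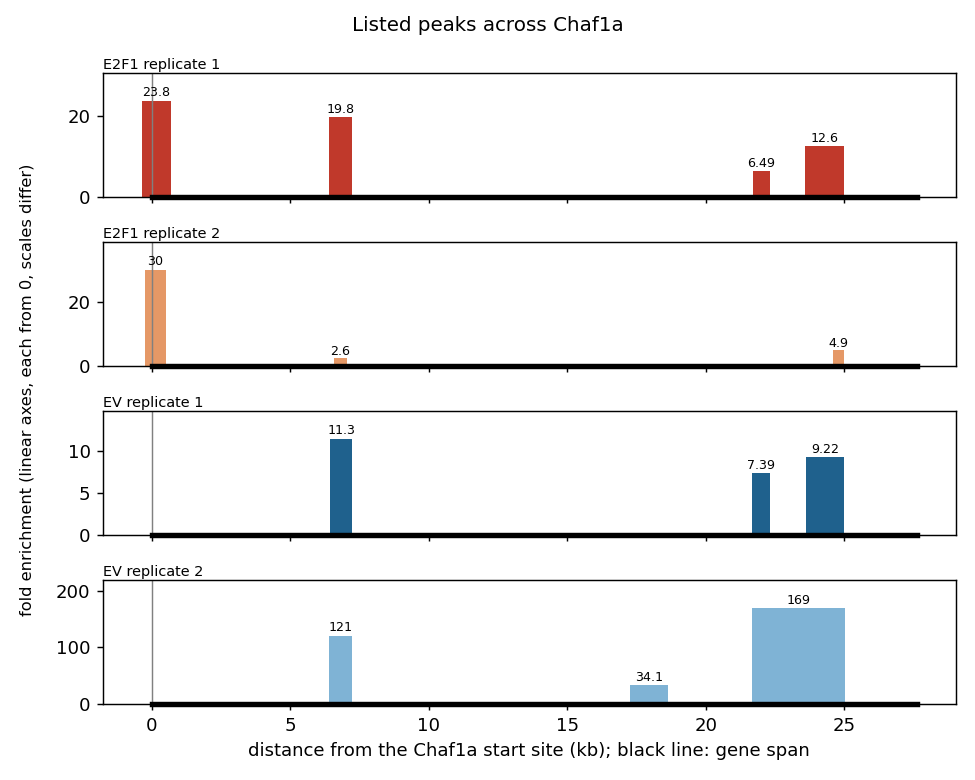
Listed peaks across Chaf1a in the 4 libraries, as bars whose width is the peak and whose height is the fold enrichment, against distance from the start site in kb; each panel starts at 0 and has its own scale, and the black line is the gene span. The bar at the start site appears in the E2F1 panels, with folds of 23.8 and 29.96, while the bars beyond 5 kb appear in EV panels too and reach 168.5 in EV replicate 2.

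Other genes of histone handling were counted from a list of 41 written with earlier results known. Of these, 34 had a peak in both E2F1 lists, 3 in one and 4 in neither, and 0 had a peak in an EV list. The 34.4% given above for all protein-coding genes is the background here too. Nucleosome assembly genes had it in 7 of 7 cases, among them Rbbp4, the small CAF-1 subunit, with folds of 11.5 and 30.4. Histone mRNA processing genes had it in 11 of 12 and genes of replication-coupled supply in 4 of 5. For HIRA and DAXX deposition, which is not tied to replication, the count was 5 of 6, for variant histone chaperones 3 of 4, for the histone locus body 2 of 3, and for FACT and elongation 2 of 4. The medians of the fold percentile over the 34 genes were 75.6 and 73.8 in replicates 1 and 2.

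The highest mean folds among these were those of Ssrp1, a subunit of the histone chaperone FACT, with 57.9 and 71.7, Eri1, the exonuclease that trims histone mRNA ends, with 32.1 and 56.3, and Anp32b, with 27.6 and 44.8. Ssrp1 ranked 14 in replicate 1 and 44 in replicate 2. The lowest were Cdan1, a partner of ASF1, with 8.98 and 7.46, Ubn2, a subunit of the HIRA complex, with 6.84 and 9.90, and Coil, the coilin gene, with 9.30 and 8.20. No E2F1 peak was listed at Daxx, the chaperone of histone H3.3, Supt6, Vps72 or Ipo4. Spty2d1, Cpsf3 and Hinfp were listed in replicate 2 alone. The genes whose fold percentiles in both E2F1 lists were nearest to those of Slbp were Tmem129, which shares its peak, and then Runx2 and Supt3, which share another peak, with folds of 48.5 and 74.9.

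**Figure D5:**
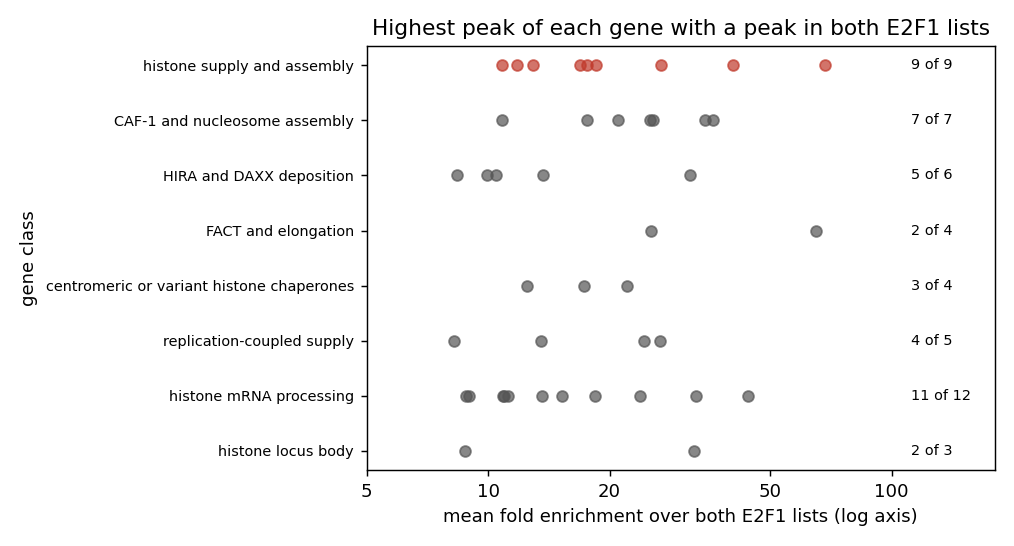
Mean fold enrichment over both E2F1 lists (log axis) of the highest peak of each gene, one row per gene class, with the number of genes that had a peak in both lists at the right. The 9 histone supply and assembly genes (red) run from 10.9 to 68.5, and the classes of related genes (grey) overlap that range.

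The nearest listed peak outside the 1000 bp limit was the one 2080 bp past the end of Asf1b in replicate 1 and 2084 bp past it in replicate 2, with folds of 15.7 and 23.0, higher than those of the Asf1b peaks themselves. At Slbp the nearest such peak was 4831 bp away, with folds of 13.2 and 11.9, and it covered the far end of the Tmem129 span. Inside the limit the farthest summit from a start site, the internal Chaf1a intervals aside, was that of Nasp in replicate 2.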

How the data were processed

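Peak lists of 4 ChIP-seq libraries were used, 2 of E2F1 cells and 2 of EV cells, grouped by their titles. Input DNA of the EV cells is named in the labels and was not analysed here. The submitters' processing notes name FastQC, Trimmomatic, Bowtie2, MACS2 and ChIPseeker and build mm10, without versions or roles. The antibody, and which control each list was called against, are not given in the sources used here. The deposited fold is a ratio of pileup to local background. The deposited score is 10 times the deposited −log10 q-value, rounded down, for 99.8% of peaks in E2F1 replicate 2 and a larger share in the other lists. The smallest deposited −log10 p-value in each list lies just above 10, so weaker sites are missing. The labels' protocol describes RNA libraries, so the ChIP steps are not given there.

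Peaks were assigned to genes of the RefSeq table (GRCm38.p6) by an overlap of at least 1 bp with the span extended by 1000 bp. Ranks and percentiles were computed within each list. Pileup and background were solved from fold and p as a Poisson tail with a pseudocount of 1; a whole-number pileup within 5% of a step was found for at least 95.7% of peaks in each list. The solver was tested on simulated data. Motifs were exact matches on both strands of 32851 RefSeq promoter windows. Python 3.11.15, pandas 2.3.3, numpy 2.4.6 and scipy 1.17.1 were used. The genes and lists were chosen with earlier results of these data known, and no test was run. All 9 genes are named, genes sharing their peaks, the 3 highest and 3 lowest related genes by mean fold and those with no peak, and the 3 genes nearest to Slbp. Rbbp4 and the 3 related genes listed in one replicate were named after their values were seen. Alternatives were the window, the boundary rule, the summit rule, a score minimum of 312, each replicate alone and other measures of strength.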

Additional observations from a re-analysis of the deposited data

How the results depend on the processing

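The count of 9 genes with a peak in both E2F1 lists stayed at 9 with windows of 500 and 2500 bp, at gene boundaries alone, by summit and in each E2F1 list alone, and was 6 with peaks at or above a score of 312, where Npat, Casp8ap2 and Asf1b dropped out in replicate 1. The count of 1 gene with an EV peak became 0 when peaks had to reach a gene boundary, a rule that leaves out peaks inside the gene, where those of Chaf1a lie. The related genes numbered 25 to 37 under the alternatives, against 34, the 37 being those with a peak in E2F1 replicate 2 whether or not replicate 1 had one. The share of all protein-coding genes was computed for the main rule alone, so the counts under the alternatives have no background beside them. The mean of the lists' median fold percentiles, 81.8, was 77.2 by score, 73.6 by width and 71.8 by solved pileup, the last chosen after the data were seen; the cause was not tested. It was 79.1 to 84.6 in single lists. The number of windows with an E2F motif rose from 2 to 5 with motifs of 7 letters, which match more sequences by construction. No test, paired or unpaired, was run because the genes were chosen on these lists, so their values are descriptions. Each group has 2 libraries with 1 value per peak, the depth of the libraries is not known, and the authors' threshold hides weaker sites.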
